A study of Caenorhabditis elegans with 40 samples.

Results

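Fatty acid oxidation is the route by which worms turn stored and dietary fat into acetyl-CoA. Acyl-CoA synthetases (acs genes) first join a fatty acid to coenzyme A, carnitine palmitoyltransferases (cpt) carry the chain across the mitochondrial membranes, and the chain is then shortened by a cycle of dehydrogenation (acdh), hydration (ech), a further dehydrogenation (hacd) and thiolysis (kat-1). A parallel peroxisomal cycle, formed by acyl-CoA oxidase (acox), maoc-1, dhs-28 and daf-22, shortens very long chains and trims the side chains of ascarosides, the pheromones through which worms of each sex signal to each other. The genes described here are the rows of the count table named acs, acdh, acox, cpt, ech or hacd followed by a number, together with maoc-1, dhs-28, daf-22 and kat-1. This rule used names and no measured value. It found 49 of 11933 genes, namely 17 acs, 12 acdh, 8 ech, 6 cpt, 1 acox and 1 hacd genes and the other 4.

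RNA of whole Caenorhabditis elegans was measured as counts of unique molecular identifiers (UMIs) from the 3' ends of transcripts at 5 stages, the larval stages L1 to L4 and the young adult (YA). Males were dpy-28(y1);him-8(e1489) animals and hermaphrodites were wild-type N2, both at 25 °C, with 4 biological repeats in each of the 10 groups of stage and sex and 40 libraries in all. dpy-28(y1) is a temperature-sensitive allele of a dosage compensation gene that kills or cripples XX animals when warm, and him-8(e1489) raises the share of males, so every male carried both alleles, no hermaphrodite did, and an effect of sex and an effect of strain cannot be told apart. Each library came from a large pool of worms grown on Escherichia coli OP50. The male L1 larvae had hatched without food before they crawled to it. The study's methods name an identical isolation protocol for every stage and sex. They do not say whether the sequenced hermaphrodites hatched with food.

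Depth ran from 1724365 to 14129759 UMIs per library, and L1 males were the shallowest group (1724365 to 3812947). Levels are given as UMI counts per 1000000 on the TMM scale (scaled CPM), fold changes as log2 of males over hermaphrodites or of the later over the earlier stage, with ± standing for the standard error (SE) of the fit on log2 values. A gene was called when its adjusted p was at most 0.05, its log2 fold change was at least 1 in size and its mean normalized count was at least 5. Of the 49 genes 43 had enough counts to be tested. The other 6, acdh-4, acs-12, acs-18, cpt-5, ech-3 and ech-8, had at most 21 counts in any library. The annotation placed 47 of the genes by name, 11 each on chromosomes II and V, 7 each on III and IV, 6 on I and 5 on X, and acox-1 and ech-1 were not placed. acdh-7 (17215018 to 17217105) and acdh-10 (17213144 to 17214903) lie side by side on chromosome X of WBcel235. Because counts come from whole animals, fewer cells that use a gene and less RNA per cell cannot be told apart.

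Some libraries stood apart within their group. YA hermaphrodite repeats 2 and 3 had summed levels of 9963 and 10066 scaled CPM over 14 oocyte and eggshell markers, against 3185 and 4068 in repeats 1 and 4, and their sums over 34 sperm markers were 759 and 1090 against 3614 and 3518. Their sums over 10 intestine markers were 16059 and 15921 against 5376 and 7780. The TMM factors of repeats 2 and 3 were 0.596 and 0.535, against 1.03 and 1.032 in repeats 1 and 4. A lower factor raises every scaled level of its library, so part of these gaps comes with the scaling. L4 hermaphrodite repeats 3 and 4 differed from repeats 1 and 2 in several genes described here, while their oocyte marker sums (876 and 854) lay close to those of repeats 1 and 2 (875 and 770). Of 8 body wall muscle markers unc-54 alone was called between the sexes at L1, L2 and L3, higher in males, and the list's median log2 fold changes there were 0.01, 0.02 and -0.06. At L4 unc-54, myo-3, unc-15 and lev-11 were higher in males and pat-10 in hermaphrodites (median 0.96). In YA animals unc-54, myo-3 and unc-15 were higher in males (median 0.81). Summed over the 8 markers, levels were 26944 to 41089 scaled CPM in L1 males and 3750 to 6944 in L1 hermaphrodites. At L2 the sums were 12868 to 15013 against 4097 to 5012, and at L3 9837 to 11444 against 5990 to 6629. Male sums also lay above hermaphrodite sums at L4 and YA. The part of muscle RNA in the results was not tested. Because hermaphrodite libraries split into pairs at L4 and YA, the counts of calls there were also fitted without each pair.

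Between the sexes, 30 of the 43 tested genes (69.8%) were called at a stage or more, against 59.9% of all 8110 genes tested. Of these 30, 19 were called only with higher levels in hermaphrodites, 8 only with higher levels in males and 3 (acs-2, cpt-3 and ech-6) in both directions at different stages. At L1, 6 genes were higher in hermaphrodites, where 2.95% of all tested genes were called in that direction, and 1 was higher in males, where 3.33% were. L2 gave 2 genes higher in hermaphrodites (background 0.21%) and 0 higher in males (background 0.493%). By edgeR's quasi-likelihood test, 1 gene had an unadjusted p under 0.05 with a higher level in L2 males, and DESeq2 also called 0. acdh-7 and cpt-1 had all 4 L2 male libraries above all 4 hermaphrodite libraries. The reverse held for more genes, namely acdh-1, acdh-2, acdh-9, acdh-11, acs-2, acs-5, ech-4, ech-6, hacd-1 and kat-1. How often libraries separate in this way over all genes was not counted. At L3 there was 1 gene in each direction, with backgrounds of 7.68% for males and 0.937% for hermaphrodites. L4 gave 11 genes higher in hermaphrodites (background 14.3%) and 4 higher in males (background 14%). Without L4 hermaphrodite repeats 3 and 4 it gave 3 in each direction, and the backgrounds of that fit were not counted. In YA animals 8 genes were higher in hermaphrodites (background 22.1%) and 9 in males (background 22.5%). Over the 43 genes the log2 fold change had a median of -0.66 at L1, where that of all tested genes was -0.14. The later medians were -0.15 (all genes 0) for L2, -0.38 (0.03) for L3, -0.13 (0.05) for L4 and 0.44 (0) for YA animals.

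**Figure D1:**
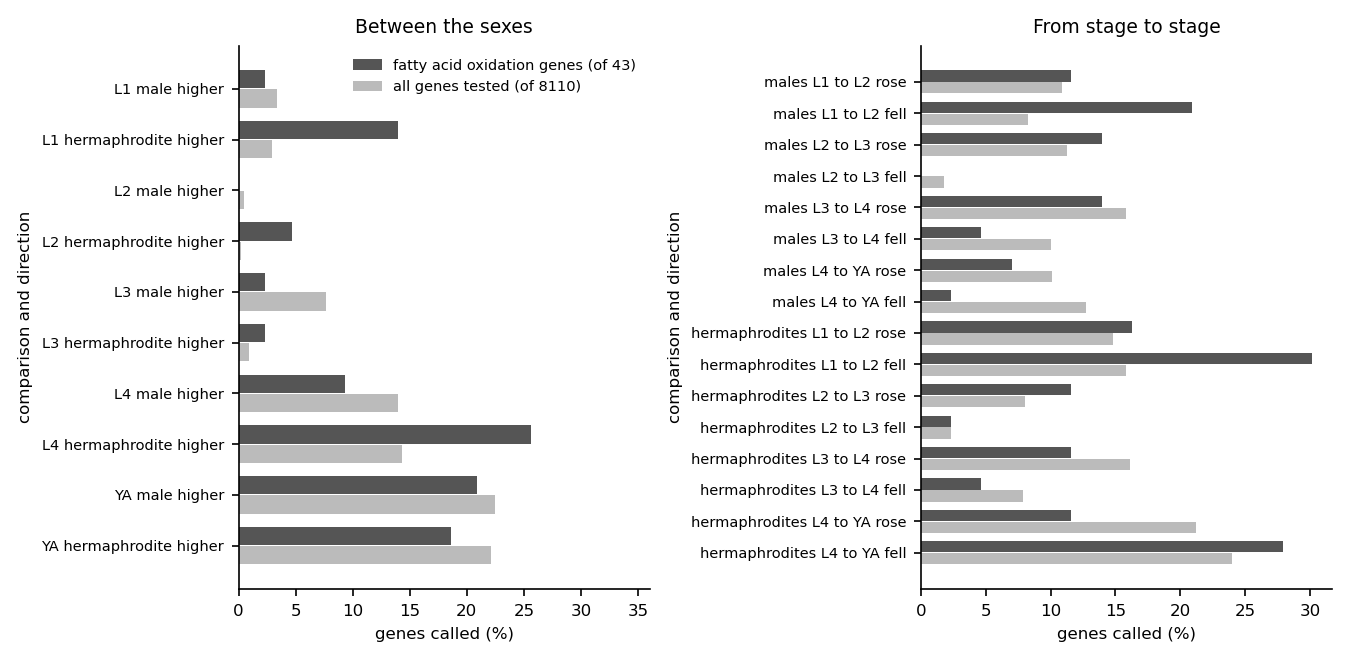
Share of genes called, in percent (x axis), among the 43 tested fatty acid oxidation genes (dark bars) and all 8110 tested genes (light bars), by comparison and direction (y axis). The dark bars exceed the light ones most for genes higher in L1 and L4 hermaphrodites and for genes that fell from L1 to L2. They lie slightly below the light ones for both directions between the sexes in YA animals. They lie further below for genes that fell from L4 to YA in males or rose from L4 to YA in hermaphrodites. The fit without L4 hermaphrodite repeats 3 and 4, which is not drawn, had 3 genes higher in each sex at L4.

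The first large movement was the fall of some of these genes after L1. From L1 to L2, 13 genes fell and 7 rose in hermaphrodites, where 15.8% of all tested genes fell and 14.8% rose. In males 9 fell and 5 rose, with backgrounds of 8.29% and 10.9%. The median log2 change over the 43 genes was -0.041 in hermaphrodites (all genes -0.052) and 0 in males (all genes 0.001), so the set as a whole did not fall. The 9 genes that fell in males, acs-2, acs-22, cpt-1, cpt-3, acdh-7, acdh-10, ech-1, maoc-1 and daf-22, also fell in hermaphrodites. acs-2, an acyl-CoA synthetase known as a fasting-induced target of the nuclear receptor NHR-49, stood at 126, 141, 191 and 177 scaled CPM in the L1 male libraries and at 1.45, 2.51, 5.5 and 5.55 in the L2 males. In hermaphrodites it went from 204, 278, 445 and 306 to 16.2, 8.77, 15.1 and 10.8. The L1 and L2 libraries did not overlap in either sex, and the log2 fold change was -5.36 ± 0.35 in males (adjusted p = 2e-14) and -4.59 ± 0.33 in hermaphrodites (adjusted p = 3.3e-14).

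cpt-3, a member of the carnitine palmitoyltransferase family, was nearly undetected at L2 and L3 after its L1 level. Its L1 levels were 32.2, 28, 47.5 and 26.7 scaled CPM in hermaphrodites and 7.33, 3.5, 5.51 and 3.75 in males. At L2 there were 0 counts in the 4 hermaphrodite libraries and 1 count in the 4 male libraries, and at L3 there were 1 and 0. Set against a floor of 3 counts over the group, L1 hermaphrodites were at least 265-fold above L2 hermaphrodites. The ratio in males, with 1 count at L2, was 104 (95% counting interval 18.2 to 4180). cpt-1, the outer-membrane transferase that commits fatty acids to the mitochondrion, fell from a mean of 351 ± 85.3 (SD, n = 4) to 46.9 ± 3.68 in hermaphrodites and from 147 ± 19.9 to 64.9 ± 4.15 in males.

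The medium-chain dehydrogenases acdh-7 and acdh-10 and the peroxisomal thiolase daf-22 had their highest means at L1. Hermaphrodite acdh-10 went from 1143 ± 243 to 301 ± 24.4 (SD, n = 4) and male acdh-10 from 793 ± 250 to 319 ± 17.2. For acdh-7 the log2 change was -2.67 ± 0.29 in hermaphrodites and -1.56 ± 0.28 in males, and for daf-22 it was -1.78 ± 0.23 and -1.19 ± 0.22. L1 repeat 1 was the highest library of its sex for these 3 genes in both sexes, for instance 711 scaled CPM of daf-22 in male repeat 1 against 259, 377 and 288 in the other males. Among the genes that rose instead, acs-1, which activates branched-chain fatty acids, went from 6.4 ± 2.03 to 34.8 ± 7.64 in males and from 6.17 ± 0.932 to 31.5 ± 1.19 in hermaphrodites, and ech-7, an enoyl-CoA hydratase family gene, rose by 1.7 ± 0.24 and 1.72 ± 0.23 on the log2 scale. By mean level, 15 of the 43 tested genes peaked in L1 hermaphrodites, 13 in L4 hermaphrodites and 5 in YA hermaphrodites. Peaks also fell in YA males (4), L3 hermaphrodites (3), L2 males (2) and L3 males (1). Some L1 peaks were low, such as that of cpt-6 at a mean of 1.63 scaled CPM. How peaks fall over all tested genes was not counted, so no excess can be read from these counts.

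**Figure D2:**
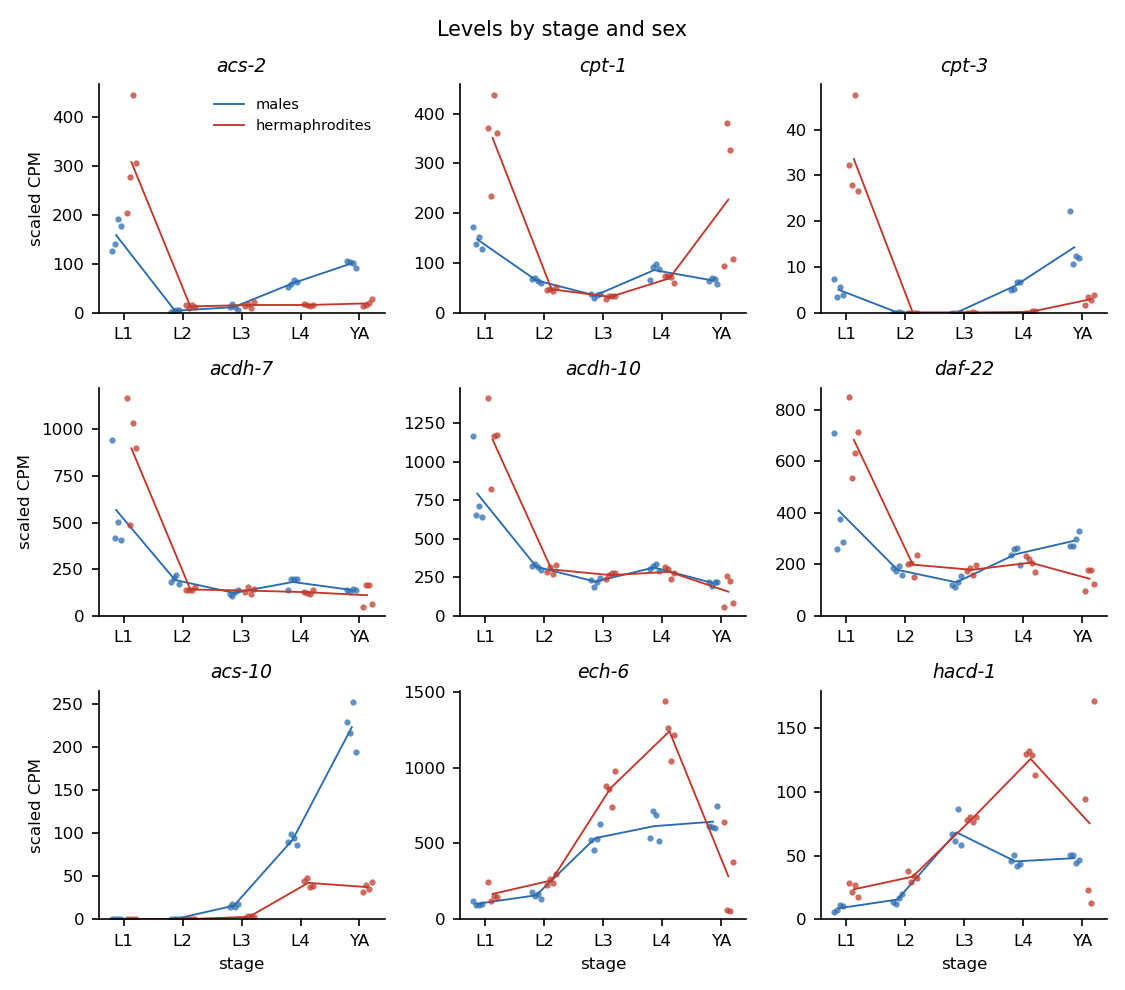
Scaled CPM (y axes, from 0) of 9 genes at the 5 stages (x axes), with 1 point per library, males blue and hermaphrodites red, and lines through the means of 4 libraries. acs-2, cpt-1, cpt-3, acdh-7, acdh-10 and daf-22 drop between L1 and L2 in both sexes, acs-10 climbs in males to 223 scaled CPM in YA animals, and ech-6 and hacd-1 climb to L4 in hermaphrodites.

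At L1, 2 of the 5 tested cpt genes, cpt-1 and cpt-3, were lower in males, along with acox-1, hacd-1 and 2 acs genes. cpt-3 differed by a log2 fold change of -2.76 ± 0.33 (adjusted p = 9.77e-07), a 6.69-fold higher mean in hermaphrodites, and no male library reached the lowest hermaphrodite library. cpt-1 stood at 173, 137, 151.6 and 127 scaled CPM in males and at 371, 234, 438 and 362 in hermaphrodites (log2 fold change -1.26 ± 0.26, adjusted p = 0.00111). Again the groups did not overlap. acox-1, the acyl-CoA oxidase that opens the peroxisomal cycle, measured 45.7, 18.8, 34.8 and 27.8 in males and 77.3, 57.2, 84.1 and 97.9 in hermaphrodites (-1.32 ± 0.22, adjusted p = 0.000101). hacd-1, a 3-hydroxyacyl-CoA dehydrogenase, had 5.6, 7.32, 10.8 and 10.1 in males and 28.3, 20.9, 26.7 and 17.7 in hermaphrodites (-1.43 ± 0.39, adjusted p = 0.0146).

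The other L1 calls were those of acs-17, acs-5 and acs-20, none of which was kept with the stage fitted alone. The acyl-CoA synthetase acs-17 differed by -1.26 ± 0.35, with all male libraries (3.02 to 10.8 scaled CPM) below all hermaphrodite libraries (15 to 24.9), but with the stage fitted alone it had -1.13 (adjusted p = 0.0791) and was not called. acs-5 lay at the threshold, with a log2 fold change of -1.0 ± 0.29 and overlapping libraries. acs-20, a relative of the mammalian fatty acid transport proteins, was the gene higher in L1 males, with 0, 10.8, 9.29 and 8.06 scaled CPM against 0.724, 2.46, 2.75 and 4.3 (1.53 ± 0.47, adjusted p = 0.0291). Repeat 1 was the lowest library of acs-20 in both sexes. A replicate block within the stage takes same-numbered repeats as paired. With it acs-20 had a log2 fold change of 1.30 (adjusted p = 0.076) and acs-5 of -0.97 (adjusted p = 0.0242), so neither was called and 5 genes remained past the thresholds. Thinning all libraries to the depth of the smallest left 3 calls at L1, with acs-17 (adjusted p = 0.221) and acox-1 (adjusted p = 0.0648) among those lost. The fit without L1 male repeat 2 left 4, and without the L1 libraries of repeat 1 hacd-1 had -1.20 (adjusted p = 0.0982). The hypodermis marker sums also differed at L1 (2001 to 2597 in males, 1109 to 1594 in hermaphrodites), while intestine marker sums overlapped (11340 to 16320 and 7806 to 17699). Of the 8 hypodermis markers rol-6 was the one called at L1. The part of hypodermis RNA in the L1 results was not tested.

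L2 and L3 brought few sex differences. acs-2 was lower in L2 males, at the levels given above, by -1.72 ± 0.33 (adjusted p = 0.00153). acdh-1, the dehydrogenase that opens the vitamin B12-independent breakdown of propionate, had 0.416, 0.457, 0.268 and 0.595 scaled CPM in L2 males, from 9 counts in all, and 2.65, 2.81, 3.13 and 2.48 in hermaphrodites (-2.66 ± 0.46, adjusted p = 0.000404). By L3 acdh-1 stood at 8.07 ± 1.77 in males and 9.96 ± 1.25 in hermaphrodites (SD, n = 4), and the sex difference had moved by 2.35 ± 0.56 on the log2 scale between these stages (adjusted p = 0.0319). After thinning, neither acs-2 nor acdh-1 was called at L2. acdh-2, a neighbour of acdh-1 in name that is annotated on chromosome II, was below the mean normalized count of 5, yet its 4 male L2 libraries had 0 counts while the hermaphrodites had 73 counts (3.71, 2.28, 2.58 and 3.54 scaled CPM), a level at least 21.7-fold higher. At L3 the counts were 3 and 68, a ratio of 22.4 in favour of hermaphrodites (95% counting interval 7.35 to 111). At L4 acdh-2 had 2 counts in males and 0 in hermaphrodites. acdh-2 overlaps the insulin-like gene ins-13 on the same strand, and the union mode named for HTSeq counts reads over exons of both for neither gene.

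From L2 to L3, 6 genes rose and 0 fell in males, where 11.3% of all tested genes rose and 1.78% fell, and 5 rose and 1 fell in hermaphrodites, where 8.04% rose and 2.33% fell. 6 genes fell in males at an unadjusted p under 0.05 in edgeR's quasi-likelihood test, and DESeq2 called 0 of them. acs-10, acdh-1, ech-1, ech-6 and hacd-1 rose in both sexes. ech-6, the mitochondrial short-chain enoyl-CoA hydratase, rose by 1.77 ± 0.39 in males and 1.76 ± 0.39 in hermaphrodites, and ech-1, a trifunctional protein subunit, by 1.30 ± 0.29 and 1.61 ± 0.27. At L3 ech-1 stood at 7.31, 8.29, 5.6 and 7.57 scaled CPM in males and 15.6, 13.4, 17.8 and 13 in hermaphrodites (-1.06 ± 0.27, adjusted p = 0.0049). The groups did not overlap, but the call lay near the threshold and was lost after thinning (-0.73, adjusted p = 0.54), without L3 male repeat 3 (-0.96) and without L3 hermaphrodite repeat 3 (-0.97).

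acs-10 was higher in males at L3, L4 and YA, the only gene of the 49 called in that direction at 3 stages. This acyl-CoA synthetase family gene had 1 count at L1 and 1 at L2 in the 4 male libraries, and 5 and 1 in hermaphrodites. At L3 it stood at 14, 17.4, 13.8 and 17.3 scaled CPM in males against 1.3, 4.02, 3.03 and 2.45 in hermaphrodites (2.5 ± 0.29, adjusted p = 1.97e-08). L4 males had 89.9, 99.1, 94.6 and 86.6 and L4 hermaphrodites 44.3, 48.2, 37.2 and 38.8 (1.14 ± 0.24, adjusted p = 0.000273). In YA animals the values were 229, 216, 253 and 194 against 30.9, 39.4, 35.3 and 43.1 (2.58 ± 0.25, adjusted p = 4.42e-11). No male library overlapped a hermaphrodite library at these 3 stages, and the sex difference narrowed from L3 to L4 (-1.36 ± 0.37, adjusted p = 0.0142) and widened again to YA (1.44 ± 0.34, adjusted p = 0.000923). Over the same stages the summed sperm markers went from 445 to 537 scaled CPM in L3 males and 70 to 111 in L3 hermaphrodites to 11375 to 13047 and 759 to 3614 in YA animals. Their part in the acs-10 result was not tested.

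acs-2 and cpt-3 turned from higher in hermaphrodites to higher in males during larval life. acs-2 rose in males from L3 to L4 by 2.42 ± 0.31 and reached 51.7, 58.3, 67.6 and 63.8 scaled CPM, while L4 hermaphrodites had 16.9, 15.4, 14.3 and 15.9 (1.95 ± 0.30, adjusted p = 2.84e-06). YA males had 106, 104, 102 and 91.8 and YA hermaphrodites 12.9, 15.7, 19.6 and 27.7 (2.4 ± 0.30, adjusted p = 1.37e-08). The change of the sex difference from L3 to L4 was 2.42 ± 0.43 (adjusted p = 0.000154). cpt-3, at 0 counts in L3 males, returned at L4 with 5.01, 5.13, 6.76 and 6.68 in males and 0, 0, 0.33 and 0.341 in hermaphrodites (4.71 ± 0.52, adjusted p = 1.33e-08), and L4 males were at least 41.2-fold above L3 males. In YA animals cpt-3 had 22.3, 10.6, 12.3 and 11.9 in males and 1.57, 3.39, 2.76 and 3.84 in hermaphrodites (2.27 ± 0.36, adjusted p = 1.79e-06). The male libraries of both genes lay above all hermaphrodite libraries at L4 and YA. Another family member, cpt-6, had 16 counts in L4 males and 3 in hermaphrodites, a ratio of 6.23 (95% counting interval 1.78 to 33.4), and was below the level needed for a call.

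**Figure D3:**
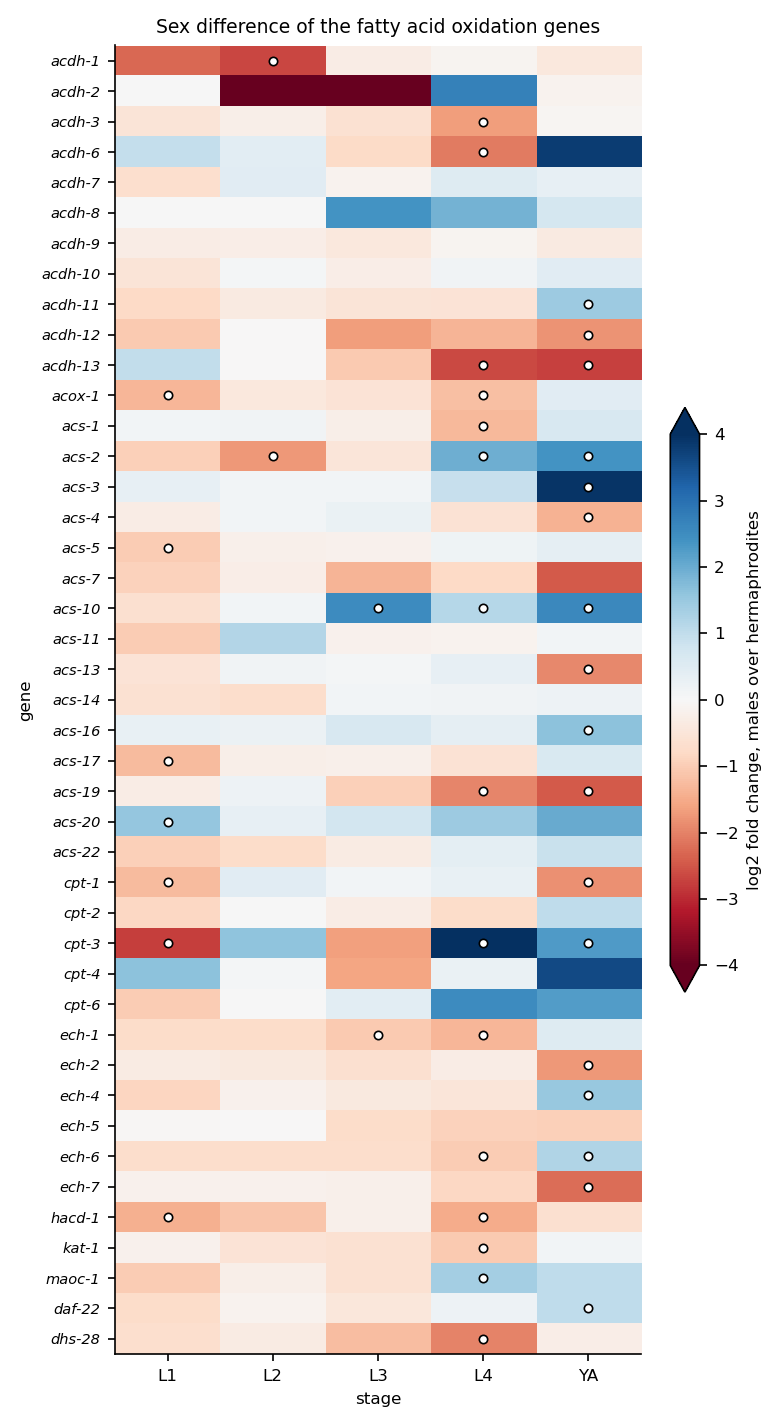
Log2 fold change of males over hermaphrodites (colour, blue higher in males, red higher in hermaphrodites, limited to 4 in size) of the 43 tested genes (y axis) at each stage (x axis), with white circles marking called genes. The circles of acs-10 stand on blue at L3, L4 and YA, those of acs-2 and cpt-3 pass from red to blue, and most other L1 and L4 circles stand on red. Strong colours without a circle, such as acdh-2 at L2, come from groups with few or 0 counts.

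At L4, kat-1, hacd-1, 2 of the 6 tested ech genes (ech-1 and ech-6) and 3 of the 11 tested acdh genes were higher in hermaphrodites. The abundant acdh-7 and acdh-10 were not called and had higher means in males (181 against 127 and 314 against 286 scaled CPM). kat-1, the mitochondrial 3-ketoacyl-CoA thiolase, measured 117, 117, 118 and 107 scaled CPM in males and 238, 198, 253 and 256 in hermaphrodites (-1.04 ± 0.15, adjusted p = 6.11e-07). hacd-1 measured 45.4, 50.8, 41.9 and 43.4 against 130, 132, 129 and 113.2 (-1.47 ± 0.37, adjusted p = 0.00171). ech-1 measured 8.77, 10.3, 8.86 and 9.75 against 26.6, 20.7, 23.6 and 24.4 (-1.34 ± 0.27, adjusted p = 0.000127). For these 3 genes every hermaphrodite library lay above every male library. ech-6 had 538, 713, 691 and 514 in males and 1438, 1263, 1042 and 1219 in hermaphrodites, also without overlap, but its log2 fold change of -1.01 ± 0.38 (adjusted p = 0.0322) lay at the threshold. With DESeq2 size factors, which shifted the all-gene median by 0.157 at L4 and 0.184 in YA animals, kat-1 had -0.88 and ech-6 -0.86, and neither was called. Intestine marker sums were also higher in L4 hermaphrodites (8673 to 11768) than in L4 males (6926 to 7898). The L3 sums were likewise apart (9120 to 11326 against 7603 to 7961). Of the 9 tested intestine markers ges-1 and mtl-2 were called at L4, both higher in hermaphrodites. The part of intestine RNA in the L3 and L4 results was not tested.

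Of the peroxisomal genes acox-1, maoc-1 and dhs-28 were called at L4. acox-1 had 15, 14.8, 11.2 and 15.6 scaled CPM in males and 27, 23, 42.9 and 37.2 in hermaphrodites (-1.21 ± 0.23, adjusted p = 8.05e-05), and -0.82 (adjusted p = 0.0295) without repeats 3 and 4. maoc-1, the peroxisomal enoyl-CoA hydratase, was higher in males at low levels, with 2.82, 3.3, 1.4 and 1.95 against 0.844, 0.753, 1.32 and 0.683 (1.35 ± 0.51, adjusted p = 0.0302). The call of maoc-1 was lost with the replicate block within the stage (adjusted p = 0.0964), after thinning (0.115), without either pair of L4 hermaphrodite libraries (0.125 and 0.117) and in 5 of the fits that left out 1 library. daf-22 did not pass the thresholds at L4 (0.21 ± 0.22). dhs-28, the peroxisomal hydroxyacyl-CoA dehydrogenase, was called with -1.99 ± 0.53 (adjusted p = 0.00313), but its hermaphrodite libraries had 11.4, 13.2, 100 and 90.5 against 17.5, 12.1, 9.55 and 15.9 in males. The excess was in hermaphrodite repeats 3 and 4 alone, and without them the log2 fold change of dhs-28 was 0.16 (adjusted p = 0.868).

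The same L4 hermaphrodite libraries were the highest for the acetyl-CoA synthetase family gene acs-19 and 3 dehydrogenases. acs-19 had 17.9, 10.9, 60.3 and 54.3 scaled CPM in hermaphrodites and 11.6, 7.33, 6.06 and 13.1 in males. acdh-6 had 3.16, 3.39, 15.7 and 16.2, acdh-13 had 1.48, 1.88, 7.91 and 6.83 and acdh-3 had 91.1, 90.7, 155 and 162 in the L4 hermaphrodites. Without those 2 libraries 6 of the 15 L4 calls were left, those of acs-1, acs-2, acs-10, cpt-3, ech-1 and hacd-1, and kat-1 had -0.92 (adjusted p = 0.000413). The log2 fold changes of ech-6 (-1.13, adjusted p = 0.0748), maoc-1 (1.54, adjusted p = 0.117), acdh-3 (-1.21, adjusted p = 0.134) and acdh-13 (-1.14, adjusted p = 0.25) were still over 1 in size but missed the adjusted p, while acs-19 had -0.64 and acdh-6 -0.48. Without repeats 1 and 2 the count was 15, with 13 genes shared. acs-1 was called in both fits, at 31.6, 26.6, 21.2 and 23.4 in males and 60.1, 43.7, 72.4 and 75.8 in hermaphrodites (-1.30 ± 0.23, adjusted p = 1.87e-05). High dhs-28 and acs-19 also went together in L3 hermaphrodite repeat 1 (47.4 and 48.7, against 8.08 to 11.4 and 11 to 16.1 in the other repeats). The same held for L2 hermaphrodite repeat 1 (29.8 and 25.2) and L2 male repeat 4 (21.8 and 31.9). It did not hold for L1 male repeat 1 (24.6 and 3.45) or YA hermaphrodite repeat 2 (8.01 and 55.4).

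From L3 to L4, 6 genes rose and 2 fell in males (backgrounds 15.8% and 10%), and 5 rose and 2 fell in hermaphrodites (16.1% and 7.87%). acs-10 and cpt-1 rose in both sexes, and cpt-2, the inner-membrane transferase, and acs-20 fell in both. cpt-2 went from 21.3, 20, 22.2 and 25.8 scaled CPM in L3 males to 3.13, 4.21, 1.86 and 3.34 in L4 males (-2.81 ± 0.47, adjusted p = 7.42e-06), while cpt-1 rose by 1.31 ± 0.27 there. In hermaphrodites cpt-2 changed by -2.36 ± 0.44 and cpt-1 by 1.12 ± 0.27. Without L4 hermaphrodite repeats 3 and 4, dhs-28, acdh-6 and acdh-12 were no longer called as rising.

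**Figure D4:**
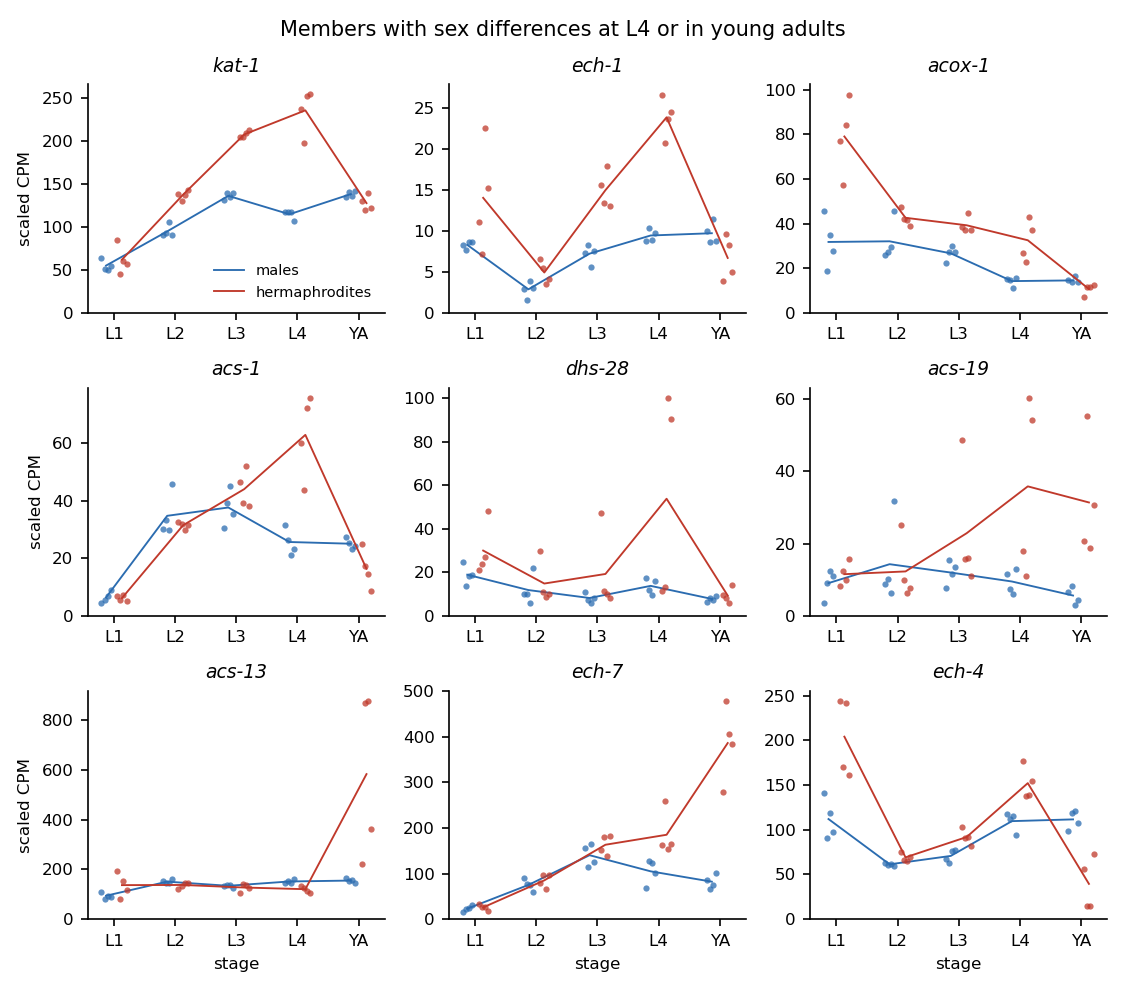
Scaled CPM (y axes, from 0) of 9 genes at the 5 stages (x axes), with 1 point per library, males blue and hermaphrodites red, and lines through the means of 4 libraries. kat-1, ech-1 and acs-1 have all L4 hermaphrodite points above the male points, as kat-1 does from L2 and ech-1 from L3, and overlap in YA animals, dhs-28 and acs-19 show the L4 hermaphrodite libraries split into pairs (100 and 90.5 against 11.4 and 13.2 for dhs-28), and acs-13 and ech-7 rise in YA hermaphrodites.

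From L4 to YA the counts of genes that fell or rose were near or below the share over all tested genes. In males 3 genes rose and 1 fell, where 10.1% of all tested genes rose and 12.7% fell. In hermaphrodites 5 rose and 12 fell, with backgrounds of 21.2% and 24%. Of these 17 calls 11 were shared by the fit without YA hermaphrodite repeats 2 and 3 and 13 by the fit without L4 hermaphrodite repeats 3 and 4. The sex difference itself changed from L4 to YA for 15 genes by the interaction test with the same thresholds. The share of all tested genes that passed this test was not counted, so no excess among the genes described here can be read from it. It moved toward males for acs-1, acs-3, acs-10, acdh-6, acdh-11, cpt-2, ech-1, ech-4, ech-6, kat-1 and acox-1, and toward hermaphrodites for acs-13, cpt-1, cpt-3 and ech-7. Without YA hermaphrodite repeats 2 and 3 the shifts of acdh-6, cpt-2, cpt-1 and ech-7 were not called and 11 of the 15 were shared, and without L4 hermaphrodite repeats 3 and 4 those of acdh-6 and cpt-2 were not called. kat-1 moved by 1.15 ± 0.21 (adjusted p = 4.01e-05) to 135, 140, 136 and 142.1 scaled CPM in YA males and 130, 119, 139 and 122 in YA hermaphrodites. acdh-6, whose L4 hermaphrodite counts came mostly from repeats 3 and 4, had 0 counts in the YA hermaphrodites and 7 in the YA males. Over all 5 stages the sex difference changed for 23 of the 43 genes, against 51.7% of all tested genes.

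Among the genes higher in YA males, acs-3 had the smallest p. acs-3, a long-chain acyl-CoA synthetase, measured 14.1, 15.4, 15 and 14.3 scaled CPM in males and 1.96, 0.616, 0 and 1.37 in hermaphrodites, from 12 counts (3.92 ± 0.36, adjusted p = 1.32e-11). acdh-11, which binds medium-chain acyl-CoA and tunes fatty acid desaturation, had 61.2, 62.2, 63.5 and 54.5 against 30.6, 9.85, 8.9 and 38.7 (1.46 ± 0.26, adjusted p = 8.7e-06). daf-22 had 270, 271, 298 and 327 against 96.4, 178, 176 and 124 (1.02 ± 0.22, adjusted p = 0.000186). The daf-22 call lay at the threshold and was lost without hermaphrodite repeats 1 and 4 (0.72), with the stage fitted alone (0.99) and in 3 of the fits that left out 1 library. The male and hermaphrodite libraries of acs-3, acdh-11 and daf-22 did not overlap. From L1 to L4 every hermaphrodite library of acdh-11 had lain above every male library without passing the thresholds, and its sex difference moved by 2.02 ± 0.36 from L4 to YA (adjusted p = 3.8e-05).

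ech-6 and ech-4 were higher in YA males, and spread widely among the YA hermaphrodite libraries. ech-6 had 615, 611, 601 and 747 scaled CPM in YA males and 639, 57.9, 53.7 and 379 in the 4 hermaphrodite libraries, so repeat 1 lay within the male range and repeats 2 and 3 lay far below it. It was called with 1.19 ± 0.39 (adjusted p = 0.00858). Without repeats 2 and 3 the log2 fold change of ech-6 was 0.62 (adjusted p = 0.0218) and it was not called, nor was it with the stage fitted alone (1.06, adjusted p = 0.267). ech-4, an enoyl-CoA isomerase family gene, had 98.9, 118, 121 and 108 in males and 55.6, 14.8, 14.4 and 72.7 in hermaphrodites (1.5 ± 0.28, adjusted p = 2.11e-05). It was called without either pair of libraries, and had 1.40 (adjusted p = 0.0598) with the stage fitted alone.

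The genes higher in YA hermaphrodites included cpt-1, acs-13 and ech-7. cpt-1 had 64.3, 70.4, 66.8 and 57 scaled CPM in males and 93.2, 381, 328 and 108 in hermaphrodites (-1.81 ± 0.27, adjusted p = 3.06e-07). acs-13, a long-chain acyl-CoA synthetase, had 166, 153, 157 and 143 against 223, 869, 877 and 362 (-1.91 ± 0.26, adjusted p = 6.02e-08). For both genes repeats 2 and 3, the libraries with the high oocyte marker sums, were the highest. Without them cpt-1 had -0.35 (adjusted p = 0.119) and acs-13 -0.63 (adjusted p = 0.0103), and neither was called. ech-7 had 86.8, 67.1, 73.9 and 101 in males and 278, 478, 406 and 384 in hermaphrodites (-2.24 ± 0.24, adjusted p = 3.07e-10), a 4.71-fold higher mean, and was called without either pair. acs-19 had 6.56, 8.33, 3.11 and 4.52 against 20.8, 55.4, 18.7 and 30.7 (-2.47 ± 0.54, adjusted p = 0.000177), and acdh-13 had 0.492, 0.287, 0.173 and 0.181 against 2.35, 1.54, 1.53 and 2.74 (-2.74 ± 0.68, adjusted p = 0.000771). acs-13 overlaps Y65B4BL.7 on the same strand, and the union mode named for HTSeq counts reads over exons of both for neither gene.

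Fitted on its own libraries alone, the YA stage gave 10 calls. Of the 17 YA calls, 14 were shared by the fit without hermaphrodite repeats 1 and 4, and 13 by the fit without repeats 2 and 3. The balance moved to 11 higher in males and 6 in hermaphrodites in the first of these fits and to 12 and 6 in the second, where acdh-7, acdh-10, acs-5 and ech-1 were gained as higher in males. hacd-1 was called in both, higher in males without repeats 1 and 4 (1.44) and higher in hermaphrodites without repeats 2 and 3 (-1.18). acs-2, acs-3, acs-10, acs-16, cpt-3, acdh-11, ech-4, acdh-13, acs-19 and ech-7 were called without either pair. Germline marker sums followed the oocyte sums, with 7494 and 7486 in repeats 2 and 3 and 2614 and 3379 in repeats 1 and 4, against 828 to 953 in YA males. Vitellogenin sums were 8399 to 22418 in YA hermaphrodites and 161 to 253 in YA males. The part of the germline, the oocytes or the time within adulthood in the YA results was not tested.

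**Figure D5:**
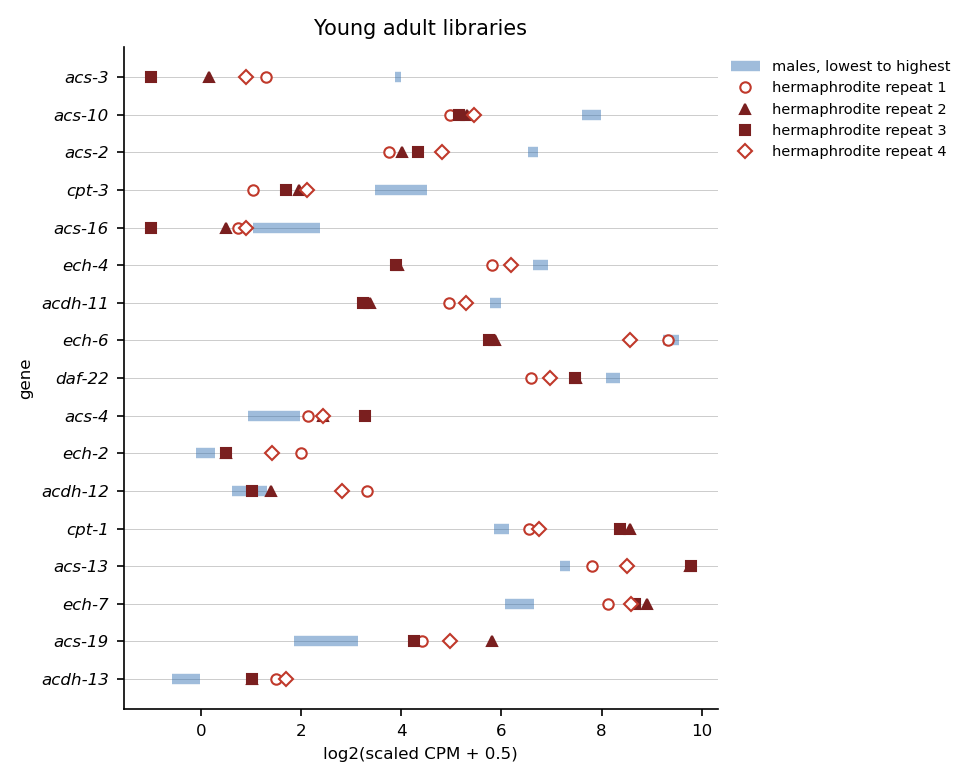
Levels of the 17 genes called between the sexes in YA animals (y axis) as log2 of scaled CPM plus 0.5 (x axis), with blue bars from the lowest to the highest of 4 male libraries, open symbols for hermaphrodite repeats 1 and 4 and filled symbols for repeats 2 and 3. ech-6 repeat 1 falls in the male bar while repeats 2 and 3 (57.9 and 53.7 scaled CPM) fall far to its left, and cpt-1 and acs-13 show the filled symbols far to the right of the open ones.

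Around these enzymes, 43 genes of 7 pathway lists were tested. Of these, 2 were higher in hermaphrodites at L1 (dif-1 and lbp-1) and 1 at L3 (acbp-6), and at both L4 and YA 12 were higher in hermaphrodites and 2 in males. The backgrounds were 14.3% and 14% at L4 and 22.1% and 22.5% in YA animals, as given above. The thiolase and branched-chain dehydrogenase list had 4 of 4 tested genes higher in L4 hermaphrodites, among them ivd-1, the isovaleryl-CoA dehydrogenase, with 88.6, 87.6, 93 and 83 scaled CPM in males and 209, 177, 249 and 227 in hermaphrodites. T02G5.7, a thiolase, had 52, 50.9, 43.1 and 54 against 209, 207, 305 and 331, a log2 fold change of -2.40 ± 0.31 (adjusted p = 1.24e-07). mccc-1, a carboxylase subunit of leucine breakdown, stood at -1.95 ± 0.36. Without L4 hermaphrodite repeats 3 and 4 these 3 genes were still called (ivd-1 -1.13, T02G5.7 -2.05, mccc-1 -1.11), and B0303.3, the other thiolase list gene, was not (-0.72, adjusted p = 0.159).

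The carnitine shuttle and electron transfer list had 4 tested genes, with let-721 and F27D4.1, which pass electrons from the dehydrogenases, higher in L4 hermaphrodites. The most abundant gene of the list, F23C8.5, was not called at L4 and had 1113, 1116, 1169 and 1046 scaled CPM in males and 1377, 1260, 592 and 846 in hermaphrodites, with repeats 3 and 4 the lowest. let-721, the electron transfer flavoprotein dehydrogenase, had 6.75, 6.02, 39.1 and 45.6 scaled CPM in L4 hermaphrodites and 3.76, 3.48, 2.8 and 5.85 in males, and without repeats 3 and 4 its log2 fold change was -0.70 (adjusted p = 0.507). F27D4.1 had -1.35 ± 0.19 (adjusted p = 4.4e-07), and -0.99 without those libraries. dif-1, a carnitine carrier of the mitochondrion, was higher in L1 and YA hermaphrodites and in L4 males, at 9.36 scaled CPM or less in every library. Its L4 call was lost without either pair of L4 hermaphrodite libraries, and its YA call without YA hermaphrodite repeats 1 and 4.

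Among 11 regulators of fat metabolism, hlh-30 was higher in L4 males and nhr-49 in L4 and YA hermaphrodites, with nhr-66 also higher in YA hermaphrodites. nhr-49, the nuclear receptor that drives many fat oxidation genes, had 2.82, 3.3, 2.1 and 3.06 scaled CPM in L4 males and 7.59, 7.53, 23.6 and 28 in hermaphrodites (-2.57 ± 0.59, adjusted p = 0.000697), and without repeats 3 and 4 it had -1.41 (adjusted p = 0.138). Without either pair of YA hermaphrodite libraries nhr-49 was not called in YA animals, and without repeats 2 and 3 nhr-66 had -0.30 (adjusted p = 0.285). hlh-30, a regulator of lipid breakdown and autophagy, had 70.5, 94, 93 and 88 in L4 males and 37.7, 26.3, 33.6 and 45.4 in hermaphrodites (1.27 ± 0.31, adjusted p = 0.0013), and was called without either pair.

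The fatty acid and acyl-CoA binding proteins had 9 tested genes, of which 3 at L4 and 5 in YA animals were higher in hermaphrodites. acbp-6 led in YA animals with 9.52, 9.19, 7.26 and 13.6 scaled CPM in males and 87.4, 77.9, 108 and 23 in hermaphrodites (-2.90 ± 0.29, adjusted p = 8.14e-11), and was called without either pair. In the propionate list of 5 tested genes, pccb-1, a subunit of propionyl-CoA carboxylase, was higher in YA males with 367, 369, 351 and 357 against 128, 107, 92.6 and 146 (1.61 ± 0.16, adjusted p = 5.53e-11), mmcm-1, the methylmalonyl-CoA mutase, likewise (1.44 ± 0.30), both also without either pair of YA hermaphrodite libraries. alh-8 was called with -1.06 ± 0.28, from 926, 3566, 4005 and 1012 in hermaphrodites and 1087 to 1201 in males. Its excess was in hermaphrodite repeats 2 and 3 alone, and without them alh-8 had 0.53 (adjusted p = 0.0292). Among 5 tested lipase genes lipl-3 and atgl-1 were higher in YA hermaphrodites, with atgl-1 lost without repeats 1 and 4 (adjusted p = 0.0501). Of 5 tested peroxisome genes prx-13 was higher in L4 hermaphrodites, with 4.85, 7.9, 19.8 and 21.7 scaled CPM, and without repeats 3 and 4 it had -1.22 (adjusted p = 0.194).

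The count table also holds 7 related genes under sequence names, 6 acyl-CoA oxidases and T08B2.7 (ech-1.2), which the naming rule did not take in and which were looked up after the files had been seen. At L4 F08A8.2, F08A8.3, F08A8.4, C48B4.1 (-3.72 ± 0.67) and T08B2.7 (-1.48 ± 0.36) were higher in hermaphrodites, and F58F9.7 and F59F4.1 were not called. In YA animals F08A8.3 and F08A8.4 were higher in hermaphrodites and T08B2.7 in males (1.07 ± 0.37). F08A8.4 (acox-1.4) had 2.19, 0.733, 1.63 and 1.67 scaled CPM in L4 males and 64.5, 51.6, 51.8 and 54.1 in hermaphrodites (-5.20 ± 0.36, adjusted p = 1.17e-14). F08A8.3 (acox-1.3) had 0, 0, 0.233 and 0 against 6.54, 3.76, 5.77 and 6.66 at L4 and 0, 0.431, 0.346 and 0.362 against 11, 26.8, 29.8 and 8.23 in YA animals. F08A8.2 (acox-1.2) had 7.83, 12.8, 6.76 and 7.52 against 54.4, 39.1, 53.2 and 52.2 at L4 (-2.50 ± 0.23, adjusted p = 5.24e-11). In these F08A8 genes the L4 hermaphrodite libraries lay above the male libraries with repeats 1 and 2 beside repeats 3 and 4. The acyl-CoA oxidases are related genes of 1 family, and how reads that map to more than 1 of them were treated was not stated.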

How the data were processed

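RNA was sequenced by a bulk version of MARS-seq, which counts unique molecules from transcript 3' ends. Per the labels and the study's methods, the authors ran cutadapt for trimming, STAR 2.4.2a for alignment against WBcel235, and HTSeq in union mode, which leaves out reads over more than 1 gene, to obtain UMI counts per gene. Neither the annotation release nor the use of strand was stated. The deposited values used are these raw UMI counts, as the authors made them. Columns of normalized values and of the authors' own fold changes and p-values were not used.

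Counts were fitted with edgeR 4.0.16 under R 4.3.3: TMM scaling, filterByExpr with a minimum count of 10 and total of 15 (8110 of 11933 genes kept), 1 quasi-likelihood model of 10 group means over 40 libraries, and Benjamini-Hochberg adjustment over all 8110 genes. Calls needed an adjusted p of at most 0.05, a log2 fold change of at least 1 in size and a mean normalized count of at least 5. Alternatives were DESeq2 1.42.0, other scaling, no filter, thinning, separate fits, a replicate block and left-out libraries. Fits without pairs of L4 hermaphrodite libraries, and without YA hermaphrodite repeats 2 and 3, were added after the data had been seen. Folds against a group with 0 counts used a floor of 3 counts over its 4 libraries, and intervals cover counting error only. Scripts were tested on simulated data. Python 3.11.15 with pandas 2.3.3 served for tables.

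Same-numbered male and hermaphrodite repeats deviated together in all 4 pairs at L1 only (correlations 0.136 to 0.587). Differently numbered L1 repeats 2 to 4 also deviated together (0.057 to 0.348), and repeat 1 of each sex went against repeats 2 to 4 of the other. These values set repeat 1 apart and do not establish 4 pairs. The main fit had no replicate block, and a block within the stage was fitted as an alternative. Values in every library are given for genes called between the sexes at 2 or more stages and for up to 3 genes per family with the smallest p. Genes and lists were chosen with earlier results of these data known. him-8 was not analysed here, and dpy-28, whose allele changes the protein, does not check the labels.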

Additional observations from a re-analysis of the deposited data

Results flagged for a closer look

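Among 86 groups of 4 libraries behind the sex calls, 5 had a library far from the other 3, where chance alone flags about 1 in 20 groups. These libraries were L4 male repeat 3 for acox-1 (11.2 scaled CPM), L4 hermaphrodite repeat 4 for hacd-1 (113.2), L4 male repeat 4 for kat-1 (107), YA male repeat 1 for cpt-3 (22.3) and YA male repeat 4 for ech-6 (747).

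The sex difference changed between neighbouring stages for the following genes, by the interaction test on the log2 scale, with positive values for a shift toward males and no minimum size, so that daf-22 is included. From L1 to L2 cpt-1 moved by 1.72, from L2 to L3 acdh-1 by 2.35, and from L3 to L4 acs-2 by 2.42, acs-10 by -1.36 and acs-1 by -1.07. From L4 to YA the shift was toward males for acdh-6 (5.87, with 0 counts in YA hermaphrodites), acs-3 (3.00), ech-6 (2.21), acdh-11 (2.02), ech-4 (1.97), acs-1 (1.93), ech-1 (1.86), cpt-2 (1.74), acox-1 (1.65), acs-10 (1.44), kat-1 (1.15) and daf-22 (0.81). It was toward hermaphrodites for cpt-3 (-2.44), acs-13 (-2.24), cpt-1 (-2.13) and ech-7 (-1.42). Shares over all tested genes were not counted for these shifts.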

How the results depend on the processing

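Thinning to the smallest library lowered most counts of called genes: between the sexes to 3 at L1, 0 at L2 and 1 at L3, in males to 9 from L1 to L2, 4 from L3 to L4 and 1 from L4 to YA, and in hermaphrodites to 12 from L1 to L2, 3 from L2 to L3 and 3 from L3 to L4. Fitting each stage alone gave 4 calls at L1, 4 at L2 and 10 at YA. Without YA hermaphrodite repeats 2 and 3 there were 4 at L2, and without L4 hermaphrodite repeats 3 and 4 there were 6 at L4, where dhs-28 turned to 0.16. The fewer counts, samples or genes of these fits are part of their construction, and no further cause was tested. Leaving out 1 library at a time gave 4 to 10 calls at L1 (4 without L1 male repeat 2), 2 to 3 at L2, 1 to 3 at L3 (1 without L3 hermaphrodite repeat 3), 12 to 16 at L4 and 14 to 19 at YA. Of the 43 calls between the sexes, 31 were kept in every such fit. A replicate block within the stage, which takes same-numbered repeats as paired, gave 5 calls at L1. Of the 43 calls, 40 held with that block and 41 with a block across stages.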
